A study of Saccharomyces cerevisiae with 18 samples.

Results

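The transcripts of 2 heterozygous diploid strains of budding yeast (Saccharomyces cerevisiae), one heterozygous at FUN14 and one heterozygous at GIP4, were compared directly, with 3 RNA-seq libraries per strain. These 6 libraries are all those of the 2 strains among the 18 of the series, which also holds 6 wild-type libraries and 3 each of the SEO1 (YAL067C) and FUN26 (YAL022C) heterozygotes. The labels call the strains yal008w heterozygous (FUN14) and yal031c heterozygous (GIP4), give BY4741 as the strain background of every library, and say that cultures were in logarithmic growth, between optical densities of 0.2 and 1, at 30 °C in YPD, a rich glucose medium, with no treatment and no G418. The column names of the wild-type libraries in the deposited counts read BY4743 rather than BY4741, and which name is right was not resolved. Per the labels both strains were grown alike and each is heterozygous at its gene, so neither is a null mutant, and the labels do not describe the altered copy. No label says that the 3 libraries of a strain were separate cultures. Every p-value therefore covers only library-to-library spread, and that spread may be technical. The deposited table gives an estimated count for the last 200 bases of each open reading frame (ORF). The total counts were 126675.5, 98801 and 66145 in GIP4 heterozygote replicates 1 to 3, and 99458.5, 72922 and 82405 in FUN14 heterozygote replicates 1 to 3. Levels are given in counts per 1000000 (CPM) of the normalised library, and refer to the same window length in all but the 222 of 6606 ORFs that are shorter than 200 bases (55 of the tested ORFs). No deposited value exceeds 201, which compresses the levels of strong ORFs, so levels of different ORFs are only roughly comparable. In RNA from whole cultures, fewer cells that express a gene and less RNA per cell cannot be told apart.

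FUN14 encodes a protein of the mitochondrial outer membrane. GIP4 encodes a protein that binds Glc7, the catalytic subunit of protein phosphatase 1, which with other targeting subunits activates glycogen synthase and so links carbon supply to storage. Yeast cells that divide fast on glucose spend much of their transcription on ribosome assembly, whereas slowing cells store glucose as glycogen and trehalose and switch on general stress genes through Msn2 and Msn4. Genes for protein folding answer mainly to the heat shock factor Hsf1, and some of them, HSP42 and HSP104 among them, to Msn2 and Msn4 as well.

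FUN14 itself was lowest in its own heterozygote. Its ORF (YAL008W, chromosome 1, 136916 to 137512 on the forward strand, in the coordinates of the deposited table) read 326, 269 and 249 CPM in the GIP4 heterozygote and 202, 142 and 181 CPM in the FUN14 heterozygote. These levels did not overlap, and the other 12 libraries lay between 278 and 395 CPM. The summed counts were 69 and 40, a ratio of 1.62 after library size (95% counting interval 1.08 to 2.45), and the exact permutation test over the 6 libraries gave two-sided p = 0.1, the smallest that 20 splits allow. The edgeR quasi-likelihood test put the log2 difference, FUN14 heterozygote minus GIP4 heterozygote, at -0.68 ± 0.33 (SE), adjusted p = 0.175, and at -1.13 with adjusted p = 0.042 when GC content was fitted as well. GIP4 (YAL031C, chromosome 1, 84750 to 87032 on the reverse strand) gave 19.7, 12.2 and 0 CPM in its own heterozygote and 89.7, 78.7 and 41.8 CPM in the FUN14 heterozygote, again with no overlap. These levels rest on 3 and 16 counts, a ratio of 5.68 with an interval of 1.63 to 30.4, and the exact test gave two-sided p = 0.1, so GIP4 was too weak to enter the comparison of all ORFs. Of the nearest tested neighbours, CYS3 and ERP2 beside FUN14 and MAK16 beside GIP4 were not called, and POP5, a protein subunit of RNase MRP and RNase P, was higher in the GIP4 heterozygote (log2 difference -1.75 ± 0.44, adjusted p = 0.0145). POP5 was no longer called without FUN14 heterozygote replicate 1 (adjusted p = 0.112) or 3 (adjusted p = 0.12). The label of a diploid was checked on mating-type genes, which a diploid represses. The 7 a-specific genes summed to 69.1, 85.7 and 107 CPM in the GIP4 heterozygote and 33.6, 94.5 and 153 CPM in the FUN14 heterozygote, against 993 to 1736 CPM in the wild-type libraries. The 12 haploid-specific genes summed to 35.5 to 168 CPM in the GIP4 heterozygote and 168 to 237 CPM in the FUN14 heterozygote, against 1250 to 1950 CPM in the wild-type libraries, and the 4 alpha-specific genes stayed at or under 109 CPM in both strains. None of these 23 genes passed the count filter. These markers were thus near 0 in both heterozygotes, while the wild-type libraries, used here only as further points of reference, had high levels of them. The wild-type libraries thus did not show the repression of a diploid. They may differ from the heterozygotes in ploidy or mating type, which was not tested further.

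Across the genome the larger set of called ORFs was higher in the GIP4 heterozygote. Of 2108 ORFs with enough counts, 362 were called at an edgeR adjusted p under 0.05 (17.2%): 70 were higher in the FUN14 heterozygote (3.32%) and 292 were higher in the GIP4 heterozygote (13.9%). The typical called ORF differed more in the second set, with a median log2 difference of -1.70 against 1.19 in the first. No ORF called higher in the FUN14 heterozygote exceeded 4-fold, while 106 of the ORFs called higher in the GIP4 heterozygote did. The tested ORFs as a whole were centred near no difference, with a median log2 difference of 0.04 and 1118 positive values. All 70 ORFs of the first set and 272 of the 292 had levels that did not overlap between the strains. Over all tested ORFs, the FUN14 heterozygote lay wholly above in 324 (15.4%) and the GIP4 heterozygote wholly above in 401 (19%).

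**Figure D1:**
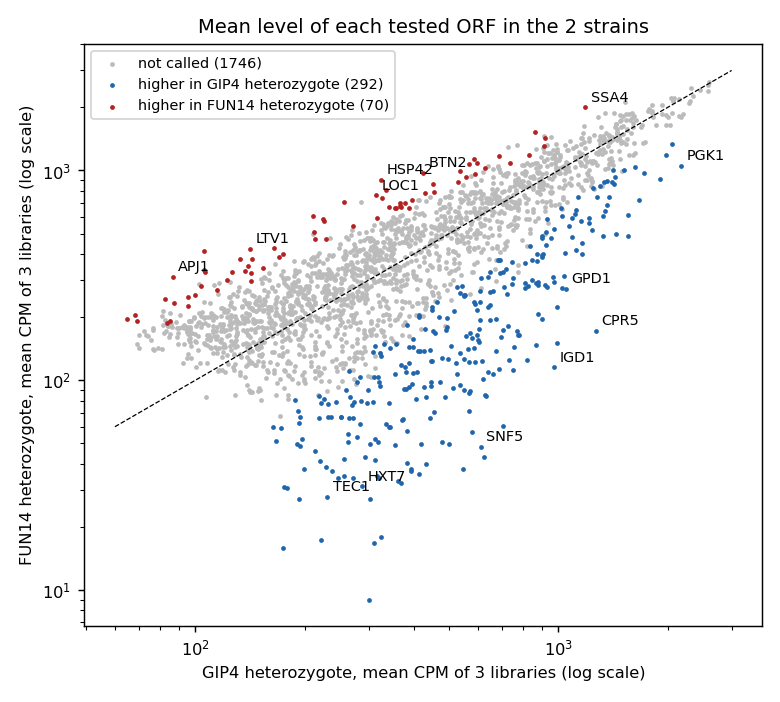
Each point is 1 of the 2108 tested ORFs, with its mean CPM over the 3 GIP4 heterozygote libraries on the x axis and over the 3 FUN14 heterozygote libraries on the y axis, both on log scales. The dashed line marks equal levels, and the 292 blue points below it spread farther from the line than the 70 red points above it.

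How many ORFs are called rests on how the spread is estimated. One edgeR fit of all libraries, in which the spread also comes from the other strains, called 0 of 2856 ORFs (smallest adjusted p 0.0787), although 646 had an unadjusted p under 0.05, against 690 in the fit of the 6 libraries. The median standard error of the 362 ORFs was 0.56 in that fit and 0.364 in the fit of the 6 libraries. DESeq2 on all libraries called 145 ORFs, 10 higher in the FUN14 heterozygote and 135 higher in the GIP4 heterozygote, of which 10 and 104 are among the 70 and the 292. Single libraries mattered as well: without GIP4 heterozygote replicate 3, 834 ORFs were called (277 and 557), without GIP4 heterozygote replicate 2, 186 (13 and 173), and without FUN14 heterozygote replicate 3, 184 (8 and 176). The number higher in the FUN14 heterozygote was 41 without GIP4 heterozygote replicate 1, 42 without FUN14 heterozygote replicate 1 and 18 without FUN14 heterozygote replicate 2. Scaling to library totals only gave 106 and 252 ORFs, a more even split than the main scaling.

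Libraries of the other strains also differed along these ORFs. For each library, the share of the 292 ORFs whose level was nearer the FUN14 heterozygote mean than the GIP4 heterozygote mean was counted. In the GIP4 heterozygote it was 0.685%, 0% and 14.0%. In the FUN14 heterozygote it was 92.5%, 99.7% and 99.7%, a gap that the choice of these ORFs fixes. Among libraries that played no part in that choice, wild-type replicate 3 stood at 94.9% while the other wild-type libraries stood between 2.74% and 39.7%. SEO1 heterozygote replicates 2 and 3 stood at 92.8% and 89.7% and replicate 1 at 1.71%, and FUN26 heterozygote replicates 1 to 3 at 10.6%, 25.7% and 67.5%. The 70 ORFs split the wild-type libraries in the same place, with 81.4% in wild-type replicate 3 and 12.9% to 31.4% in the other wild-type libraries. Median log2 CPM over the 292 ORFs was 9.21 and 6.96 in wild-type replicates 2 and 3. It was 9.29 and 7.12 in SEO1 heterozygote replicates 1 and 2, and ran from 7.76 to 8.75 in the FUN26 heterozygote. GIP4 heterozygote replicates 1 to 3 stood at 9.41, 9.13 and 8.55, and FUN14 heterozygote replicates 1 to 3 at 7.47, 7.03 and 7.31. Wild-type and SEO1 heterozygote libraries of 1 label therefore lay farther apart than GIP4 heterozygote replicate 3 did from any FUN14 heterozygote library. Whether the source of that spread also set the 2 heterozygotes apart was not tested.

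**Figure D2:**
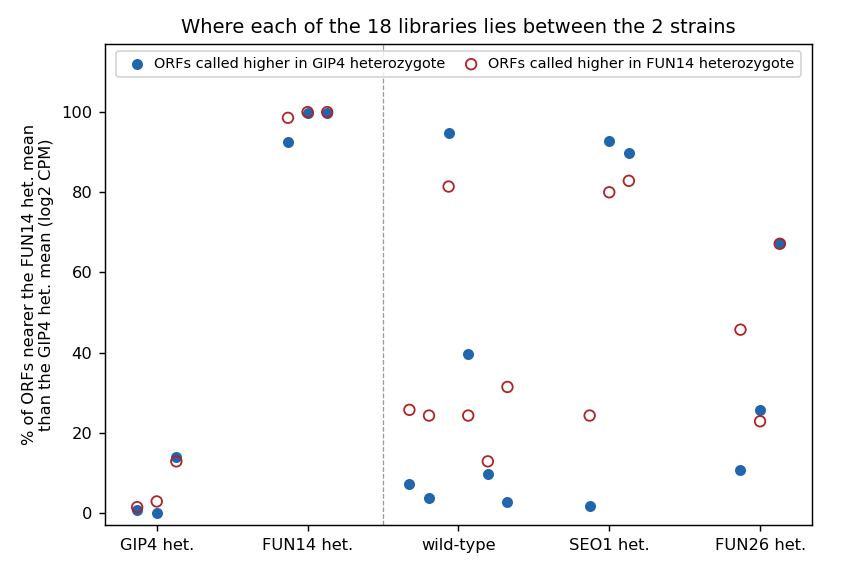
For each of the 18 libraries (x axis, by strain, in replicate order), the y axis gives the percentage of the 292 (filled) or 70 (open) called ORFs whose log2 CPM was nearer the FUN14 heterozygote mean than the GIP4 heterozygote mean. For the 292 ORFs the wild-type and SEO1 heterozygote libraries fall near both ends of the scale within a strain, and the FUN26 heterozygote libraries lie between 10.6% and 67.5%.

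The called ORFs also differed in base composition. The GC content of the last 200 bases was 43.9 ± 3.13% (SD over ORFs) in those higher in the GIP4 heterozygote, 39.6 ± 5.19% in those higher in the FUN14 heterozygote and 42.3 ± 5.36% in the uncalled ORFs, over the 1921 ORFs (91.1%) with a known sequence. Across these ORFs, which are not independent replicates and share the same 6 libraries, Spearman's rho between GC content and the log2 difference was -0.37. The course was not even: the median log2 difference was 0.45 from 25.5% to 36.5% GC, -0.44 from 44.5% to 45.5% and 0.03 from 48.5% to 62.5%. With GC content as an offset fitted per library, 337 ORFs were called, 110 higher in the FUN14 heterozygote and 227 higher in the GIP4 heterozygote, of which 45 and 215 are among the 70 and the 292. Its part in the results was not tested beyond that fit.

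**Figure D3:**
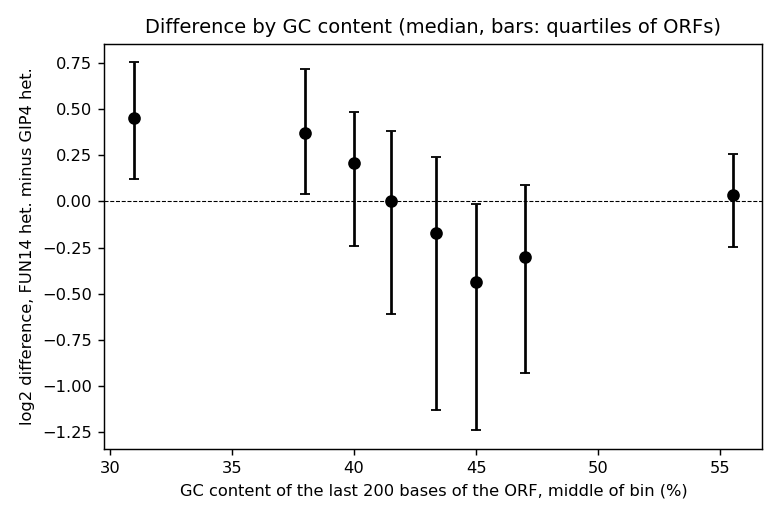
Tested ORFs were put in bins by the GC content of their last 200 bases (x axis, middle of the bin), and the y axis gives the median log2 difference, FUN14 heterozygote minus GIP4 heterozygote, with bars to the quartiles of the ORFs. The median falls from 0.45 in the first bin to -0.44 near 45% GC and is 0.03 in the last bin.

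Genes for ribosome assembly, which process ribosomal RNA and build pre-ribosomes in the nucleolus, formed the largest group on the FUN14 heterozygote side. Of 156 listed genes 94 were tested: 18 were higher in the FUN14 heterozygote, 2 were higher in the GIP4 heterozygote and 74 were not called, against backgrounds of 3.32% and 13.9% over all tested ORFs. The list's median log2 difference was 0.73, beside 0.04 over all tested ORFs, and 77 of the 94 were positive. Summed over all 156 genes, the level was 30640, 45556 and 47437 CPM in the GIP4 heterozygote and 50448, 61436 and 56841 CPM in the FUN14 heterozygote, with no overlap. The wild-type libraries ran from 38964.5 to 58634 CPM, so they covered much of the span between the strains, and replicate 3 was again the one nearest the FUN14 heterozygote.

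The promoters of LTV1 and LOC1, members of this list called in the FUN14 heterozygote direction, are shown because they hold the letters of both promoter elements known for this gene class, PAC (GATGAG on either strand) and RRPE (AAAATTTT, its own reverse complement). Each line runs 5′ to 3′ on the gene's strand from base 250 to base 101 before the start codon in RefSeq's R64 assembly (chrXI:176531-176680 and chrVI:148860-149009, both forward), with PAC and RRPE letters in capitals.
LTV1: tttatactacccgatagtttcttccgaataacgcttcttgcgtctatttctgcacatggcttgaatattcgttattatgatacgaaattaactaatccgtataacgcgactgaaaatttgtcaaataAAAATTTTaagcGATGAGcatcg
LOC1: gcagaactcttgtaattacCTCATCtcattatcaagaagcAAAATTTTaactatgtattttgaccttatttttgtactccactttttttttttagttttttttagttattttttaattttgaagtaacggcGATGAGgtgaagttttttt
Within the 250 bases before the start codon, the PAC letters stood in 17% of all 6001 promoters, 19.2% of those of tested ORFs, 47.7% of those of ORFs higher in the FUN14 heterozygote and 11% of those of ORFs higher in the GIP4 heterozygote. The RRPE letters stood in 8.65%, 13.7%, 36.9% and 6.82% of the same sets. The ribosome assembly list held PAC letters in 85.9% and RRPE letters in 73.7% of its promoters. Outside that list, 14 of 47 promoters of ORFs higher in the FUN14 heterozygote (29.8%) held PAC letters and 10 (21.3%) held RRPE letters. A match to these letters is a description of the sequence, not a site shown to act.

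LTV1, a factor needed to make the small ribosomal subunit, gave 98.6, 147 and 178 CPM in the GIP4 heterozygote and 370, 441 and 459 CPM in the FUN14 heterozygote. All 3 FUN14 heterozygote libraries lay above the other 3, with a log2 difference of 1.62 ± 0.34 (adjusted p = 0.00547). ENP2, a nucleolar protein of the early small-subunit precursor, gave 138, 135 and 124 against 370, 362 and 404 CPM (1.50 ± 0.32, adjusted p = 0.00606). DRS1, an RNA helicase of large-subunit assembly, gave 138, 367 and 267 against 650, 803 and 668 CPM (1.48 ± 0.32, adjusted p = 0.00653). In LOC1, which acts in large-subunit assembly and in the localisation of ASH1 mRNA, the levels were 207, 380 and 355 against 605, 945 and 738 CPM (1.29 ± 0.29, adjusted p = 0.00705). LOC1 just missed the threshold without FUN14 heterozygote replicate 3 (adjusted p = 0.055), while LTV1, ENP2 and DRS1 were called with any 1 library left out. In the edgeR fit of all libraries none of these 4 was called (adjusted p from 0.0787 to 0.0908), whereas DESeq2 on all libraries called each of them (adjusted p from 0.019 to 0.046). The other 14 called higher in the FUN14 heterozygote were MAK21, TSR2, NOP4, KRR1, NOP7, RLP24, SDA1, NOP16, RRP8, SOF1, RRP12, MAK5, NMD3 and REI1. Their log2 differences ran from 0.72 in REI1 to 1.57 in SOF1. The 2 members on the opposite side were the helicase DBP8 (-1.80 ± 0.47, adjusted p = 0.0193) and the GTPase NOG1 (-1.42 ± 0.43, adjusted p = 0.0377). Each of these 16 genes lost the call without at least 1 of the 6 libraries, DBP8 in 3 and NOG1 in 4 of the fits. With GC offsets SOF1, SDA1, RRP8, RRP12, MAK5, NOP16 and NOP7 lost the call (adjusted p from 0.0644 to 0.197). DBP8 and NOG1 lost it there as well (adjusted p = 0.0538 and 0.149). The nucleolar core proteins NOP1, NOP56 and NOP58 had overlapping levels and were not called, with log2 differences of 0.90, 0.75 and 0.48. Leaving out 1 library moved the count of 18 to 8 without GIP4 heterozygote replicate 1, 9 without replicate 2, 48 without replicate 3, 6 without FUN14 heterozygote replicate 2 and 5 without replicate 3. The list's median stayed between 0.43 and 0.89 in these fits. The median GC content of its tested members was 39%.

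RRB1, a nuclear chaperone that brings ribosomal protein L3 into assembly, lay outside the list and gave 49.3, 49.0 and 107 against 179, 283 and 153 CPM (1.64 ± 0.45, adjusted p = 0.0219). Its levels did not overlap, but the call held only with GIP4 heterozygote replicate 3 left out among the fits that drop 1 library (adjusted p from 0.0659 to 0.156 in the others). RPA135, the second-largest subunit of RNA polymerase I, which transcribes the ribosomal RNA genes, was the member of the RNA polymerase I and III list called higher in the FUN14 heterozygote, at 118, 208 and 196 against 347, 409 and 445 CPM (1.22 ± 0.34, adjusted p = 0.0242). The call was lost without GIP4 heterozygote replicate 1 or 2 or FUN14 heterozygote replicate 2 or 3 (adjusted p from 0.0661 to 0.112). RPC34, a subunit of RNA polymerase III whose window overlaps another ORF, was higher in the GIP4 heterozygote (-1.75 ± 0.44, adjusted p = 0.0138) but lost the call without GIP4 heterozygote replicate 2 or FUN14 heterozygote replicate 2 or 3 (adjusted p from 0.0854 to 0.11). Of the 14 tested members of that list 12 were not called, so each direction held 1 call beside the backgrounds of 3.32% and 13.9%. The list's median was 0.41, and 10 of the 14 values were positive. DESeq2 called neither RPA135 nor RPC34 (adjusted p = 0.0614 and 0.057), and RPA135 was also not called with GC offsets (adjusted p = 0.0536).

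Ribosomal protein genes had smaller medians than the assembly genes, although the small-subunit median came close to theirs with GC offsets (0.50 against 0.52). Of 55 tested genes of the small subunit 3 were higher in the FUN14 heterozygote and 2 in the GIP4 heterozygote, with a median log2 difference of 0.26. Of 71 tested genes of the large subunit 3 and 4 were called, with a median of 0.20. Most values were positive, 44 of 55 and 48 of 71. The calls higher in the GIP4 heterozygote were few beside the background share of 13.9%. Those higher in the FUN14 heterozygote were slightly above the background share of 3.32%. Those counts moved with the fit: the calls higher in the FUN14 heterozygote were 13 in the small and 12 in the large subunit without GIP4 heterozygote replicate 3, 0 or 1 without any other 1 library, and 10 and 8 with GC offsets. The calls higher in the GIP4 heterozygote ran from 0 to 3 and from 2 to 7 with 1 library left out, lowest without FUN14 heterozygote replicate 3. RPS4B gave 98.6, 159 and 160 against 280, 409 and 362 CPM (1.34 ± 0.36, adjusted p = 0.0202). RPS11B went the other way at 641, 490 and 196 against 123, 142 and 153 CPM (-1.71 ± 0.42, adjusted p = 0.0126). RPS2, which has no paralog, was also higher in the GIP4 heterozygote, at 1332, 1494 and 1315 against 863, 598 and 779 CPM (-0.87 ± 0.18, adjusted p = 0.0044). RPL17A was higher in the FUN14 heterozygote (1.26 ± 0.38, adjusted p = 0.0365), and RPL33A, RPL8A and RPL21B were higher in the GIP4 heterozygote (-1.38 ± 0.26, -1.19 ± 0.27 and -1.16 ± 0.24). The RPL33A window overlaps another ORF. Most ribosomal protein genes have a near-identical paralog that may share counts, so a single member of a pair is uncertain. The RPS4B call was lost in 4 of the 6 fits that leave out 1 library and the RPL17A call in 5 of them, and RPS11B lost it without GIP4 heterozygote replicate 2 (adjusted p = 0.0557) or FUN14 heterozygote replicate 3 (adjusted p = 0.0628). RPS2 and RPL8A lost it without FUN14 heterozygote replicate 3 (adjusted p = 0.0504 and 0.055), and RPS2 also with GC offsets (adjusted p = 0.059).

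Translation factors and tRNA synthetases did not stand to 1 side. Of 30 tested translation factors 2 were higher in the FUN14 heterozygote and 4 in the GIP4 heterozygote, beside the backgrounds of 3.32% and 13.9%, with a median of 0.11. The count of 2 was 11 without GIP4 heterozygote replicate 3 and 0 or 1 without any other 1 library. GCD2 and GCN3, both subunits of the exchange factor eIF2B, went in opposite directions: GCD2 gave 49.3, 73.5 and 124 against 179, 189 and 362 CPM (1.64 ± 0.45, adjusted p = 0.0242), and GCN3 gave 414, 490 and 284 against 112, 78.7 and 97.4 CPM (-2.03 ± 0.37, adjusted p = 0.00206). The GCD2 call was lost without GIP4 heterozygote replicate 1 or 2 or FUN14 heterozygote replicate 3 (adjusted p from 0.101 to 0.202), while the GCN3 call held with any 1 library left out. TIF34, a subunit of the initiation factor eIF3, was higher in the GIP4 heterozygote (-1.56 ± 0.27, adjusted p = 0.00145), and so was EFB1, the exchange factor of elongation factor 1 (adjusted p = 0.00222). HYP2, the elongation factor eIF5A, was as well (-1.09 ± 0.21, adjusted p = 0.00325), although its window overlaps another ORF. Of 17 tested tRNA synthetases 1 was called, FRS1, which was higher in the GIP4 heterozygote (-0.60 ± 0.18, adjusted p = 0.0333), while the list's median was 0.40. FRS1 lost the call without GIP4 heterozygote replicate 2 or any 1 FUN14 heterozygote library (adjusted p from 0.0531 to 0.195), and its log2 difference was -0.14 with GC offsets (adjusted p = 0.629).

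**Figure D4:**
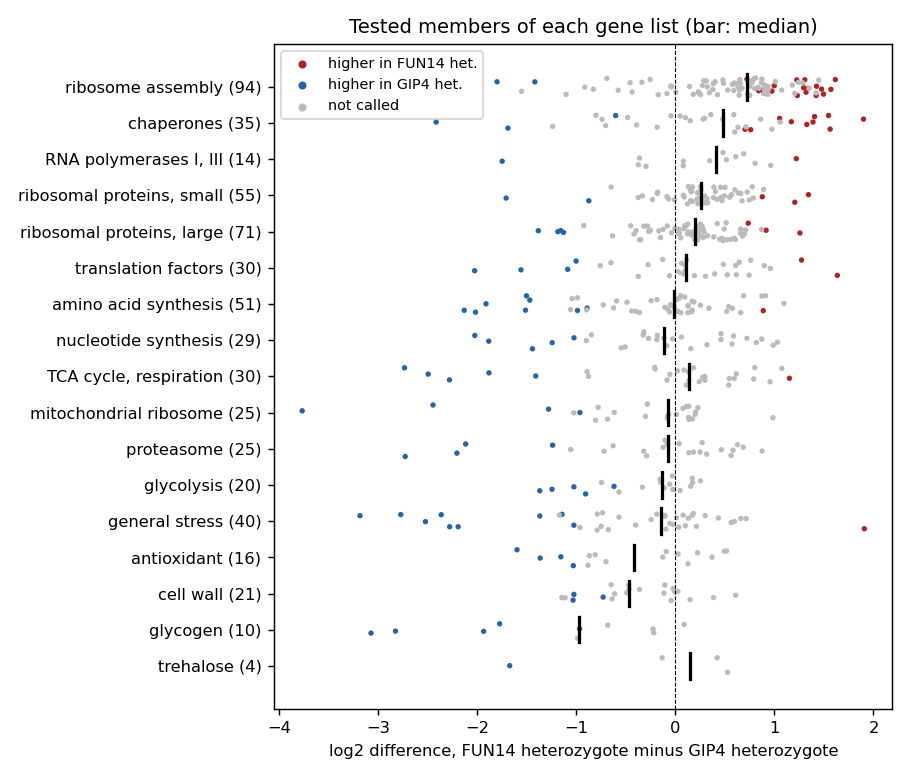
Each point is a tested member of a gene list (rows, with the number tested), placed on the x axis by its log2 difference, FUN14 heterozygote minus GIP4 heterozygote. Black bars are list medians, from 0.73 in ribosome assembly to -0.98 in glycogen, and blue points reach farther from 0 than red points.

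Chaperone and heat shock genes leaned towards the FUN14 heterozygote, as the ribosome assembly genes did. Of 44 listed genes 35 were tested, and 10 were higher in the FUN14 heterozygote, 3 were higher in the GIP4 heterozygote and 22 were not called, beside the backgrounds of 3.32% and 13.9%. The list's median log2 difference was 0.48. Summed over the 44 genes, the level was 21673, 22086 and 23443 CPM in the GIP4 heterozygote and 23627, 27765 and 25887 CPM in the FUN14 heterozygote, so the groups were adjacent without overlapping. The wild-type libraries ran from 18677 to 24448 CPM. FUN26 heterozygote replicate 3 was highest of the 18 at 28084.5 CPM.

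HSP42 is shown, chosen after its values were seen, because its promoter holds the letters of a heat shock element of 3 units, GAANNTTC followed directly by NNGAA, on either strand. The line runs 5′ to 3′ on the forward strand of R64 from base 250 to base 101 before the start codon (chrIV:806371-806520), and the first run of capitals marks 2 overlapping matches, 1 on each strand. The other 3 runs mark AGGGG, the letters of the stress response element bound by Msn2 and Msn4.
HSP42: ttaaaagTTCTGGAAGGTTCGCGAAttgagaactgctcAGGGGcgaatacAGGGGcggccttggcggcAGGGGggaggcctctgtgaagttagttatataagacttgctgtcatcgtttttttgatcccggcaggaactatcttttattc
The letters of the 3-unit heat shock element stood in 0.75% of all promoters, 1.35% of those of tested ORFs and 18.2% of those of the chaperone list, and in 3 of 65 promoters (4.62%) of ORFs higher in the FUN14 heterozygote. The 3 are HSP42, HSP78 and FES1. The shorter form GAANNTTC stood in 9.93% of all promoters, 15.4% of those of ORFs higher in the FUN14 heterozygote and 25% of those of the chaperone list.

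HSP42, a small heat shock protein that gathers misfolded proteins into aggregates, gave 552, 245 and 178 CPM in the GIP4 heterozygote and 818, 992 and 905 CPM in the FUN14 heterozygote (log2 difference 1.39 ± 0.32, adjusted p = 0.00825). BTN2, which sorts misfolded proteins together with HSP42, gave 533, 416 and 320 against 1031, 1039 and 863 CPM (1.17 ± 0.22, adjusted p = 0.00266). APJ1, a co-chaperone of the Hsp40 class, gave 49.3, 85.7 and 124 against 247, 409 and 278 CPM (1.90 ± 0.42, adjusted p = 0.00699). In APJ1 all 3 FUN14 heterozygote libraries lay above each of the other 15, whose values were 136 CPM or less. SSA4, the stress-inducible Hsp70, gave 1134, 1126 and 1297 against 1737, 2252 and 2032 CPM (0.76 ± 0.16, adjusted p = 0.00543). SIS1, an essential Hsp40, gave 227, 85.7 and 320 against 437, 709 and 668 CPM (1.55 ± 0.39, adjusted p = 0.0145). HSP104, the disaggregase, gave 710, 465 and 498 against 863, 1039 and 877 CPM (0.70 ± 0.21, adjusted p = 0.0368), and its groups were close together. The remaining called members on this side were the mitochondrial disaggregase HSP78, the Hsp70 exchange factor FES1, SSA3 and the ribosome-bound Hsp70 SSB2, which is near-identical to SSB1 and may share its counts. The 3 members higher in the GIP4 heterozygote were the Hsp90 activator AHA1, the kinase co-chaperone CDC37 and the cyclophilin CPR1, whose window overlaps another ORF. AHA1 gave 1006, 784 and 480 against 123, 157 and 153 CPM (-2.41 ± 0.34, adjusted p = 0.000518). The chaperones SSA1, SSA2, HSP82 and SSC1 were not called, with log2 differences from -0.04 to 0.15 and overlapping levels. BTN2, APJ1 and AHA1 were called with any 1 library left out, while SSA4 and SIS1 lost the call without GIP4 heterozygote replicate 2 (adjusted p = 0.0809 and 0.0754) or FUN14 heterozygote replicate 3 (0.0684 and 0.0977). HSP42 and HSP78 lost it without the same libraries (adjusted p from 0.0552 to 0.0757), and HSP104, FES1, SSA3 and SSB2 lost it in 4, 3, 5 and 5 of the 6 fits. On the other side CDC37 lost it in 4 and CPR1 in 3. The count of 10 fell to 2 without either of those libraries and to 6 without FUN14 heterozygote replicate 2. DESeq2 on all libraries called 4 members higher in the FUN14 heterozygote and 1 higher in the GIP4 heterozygote. With GC offsets SSA4, FES1, HSP104 and SSA3 lost the call (adjusted p from 0.0552 to 0.0782), as did CPR1 on the other side (adjusted p = 0.151).

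Genes of glycogen synthesis went the other way. Of 24 listed genes 10 were tested, and 5 were higher in the GIP4 heterozygote and none in the FUN14 heterozygote, beside the background of 13.9% in that direction. The list's median log2 difference was -0.98 and 9 of the 10 values were negative. Summed over the 24 genes, the level was 6027, 4530 and 3608 CPM in the GIP4 heterozygote and 2365, 1984 and 2436 CPM in the FUN14 heterozygote. All GIP4 heterozygote libraries lay above all FUN14 heterozygote libraries. The wild-type libraries ran from 1181 to 4774 CPM, with replicate 3 lowest of the 18, so wild-type libraries reached both strains.

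The promoters of IGD1 and GSY2 are shown because both genes were called and both hold the letters of the stress response element, AGGGG on either strand (here as CCCCT, in capitals). The lines run 5′ to 3′ on the gene's strand of R64 from base 250 to base 101 before the start codon (chrVI:182962-183111, reverse, and chrXII:660466-660615, forward).
IGD1: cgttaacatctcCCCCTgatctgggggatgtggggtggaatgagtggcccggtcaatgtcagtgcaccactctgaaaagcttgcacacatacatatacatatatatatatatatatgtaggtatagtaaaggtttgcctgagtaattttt
GSY2: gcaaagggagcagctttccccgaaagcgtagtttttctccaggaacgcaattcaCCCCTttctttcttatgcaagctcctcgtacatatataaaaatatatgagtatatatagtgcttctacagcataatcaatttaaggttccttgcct
The letters stood in 18.8% of all promoters, 21.9% of those of tested ORFs, 20.8% of those of ORFs higher in the GIP4 heterozygote and 13.8% of those of ORFs higher in the FUN14 heterozygote. They stood in 42.4% of the promoters of the joint glycogen and trehalose list and 63.3% of those of the general stress list. The share among ORFs higher in the GIP4 heterozygote was thus close to that of all tested ORFs.

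IGD1, which inhibits glycogen debranching, gave 1144, 979 and 800 CPM in the GIP4 heterozygote and 134, 142 and 69.6 CPM in the FUN14 heterozygote. It had the smallest unadjusted p of all tested ORFs, with a log2 difference of -3.07 ± 0.30 (adjusted p = 0.000148), and the other 12 libraries spread from 86.8 to 989 CPM. GIP2, a targeting subunit of the Glc7 phosphatase, gave 276, 159 and 142 against 22.4, 31.5 and 27.8 CPM (-2.82 ± 0.50, adjusted p = 0.00183). GSY2, the main glycogen synthase, gave 1440, 1041 and 302 against 269, 236 and 334 CPM (-1.77 ± 0.42, adjusted p = 0.00941). In GSY2 the groups overlapped, since GIP4 heterozygote replicate 3 lay below FUN14 heterozygote replicate 3. GLG1, the glycogenin that primes the polymer, overlapped in the same way at 700, 416 and 107 against 146, 126 and 55.7 CPM (-1.93 ± 0.55, adjusted p = 0.0274). GLC8, a regulatory subunit of Glc7, gave 592, 404 and 391 against 258, 189 and 264 CPM (-0.97 ± 0.31, adjusted p = 0.0475). The second synthase gene GSY1, the second glycogenin gene GLG2, the kinase gene PHO85, UGP1 and PGM2 were not called, with log2 differences of -0.99, -0.68, -0.23, -0.22 and 0.09. IGD1 and GIP2 were called with any 1 library left out. GSY2 lost the call without FUN14 heterozygote replicate 3 (adjusted p = 0.058), and GLG1 without GIP4 heterozygote replicate 1 or 2 or FUN14 heterozygote replicate 2 or 3 (adjusted p from 0.057 to 0.155). GLC8 lost it without any 1 of the libraries other than GIP4 heterozygote replicate 3 (adjusted p from 0.0824 to 0.179). DESeq2 on all libraries called IGD1 (adjusted p = 0.00015) and GLG1 (adjusted p = 0.0426).

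Trehalose genes did not follow. Of 9 listed genes 4 were tested, and the called one, DCS2, is a paralog of the scavenger decapping enzyme DCS1 rather than a trehalose enzyme. DCS2 gave 533, 245 and 178 against 89.7, 94.5 and 125 CPM (-1.67 ± 0.46, adjusted p = 0.0223), and the call was lost without GIP4 heterozygote replicate 1 or any 1 of the FUN14 heterozygote libraries (adjusted p from 0.0732 to 0.0953). The synthase genes TPS1, TPS2 and TSL1 were not called, with log2 differences of 0.42, -0.13 and 0.53 and overlapping levels. Over both lists, 14 of 33 genes were tested, 6 were higher in the GIP4 heterozygote, beside the background of 13.9%, and the median log2 difference was -0.82. The count of 6 was 2 without GIP4 heterozygote replicate 1 or FUN14 heterozygote replicate 3, and 3 without GIP4 heterozygote replicate 2 or FUN14 heterozygote replicate 2. The other 19 genes had too few counts: PSK1, PSK2, NTH1, NTH2, ATH1, GLC3, GPH1, GDB1, SGA1, PGM1, TPS3, DCS1, GAC1, PIG1, PIG2, PCL6, PCL7, PCL8 and PCL10. Among them GPH1, the phosphorylase that breaks glycogen down, gave 227, 110 and 71.1 against 56.0, 63.0 and 139 CPM, and GAC1, the Glc7 subunit that targets glycogen synthase, gave 59.2, 85.7 and 88.9 against 67.2, 31.5 and 83.5 CPM. Neither pair of groups was separate. In a list of 26 genes around the Glc7 phosphatase, 7 were tested, and the 3 called were GIP2, GSY2 and GLC8 again, beside the same background of 13.9%.

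**Figure D5:**
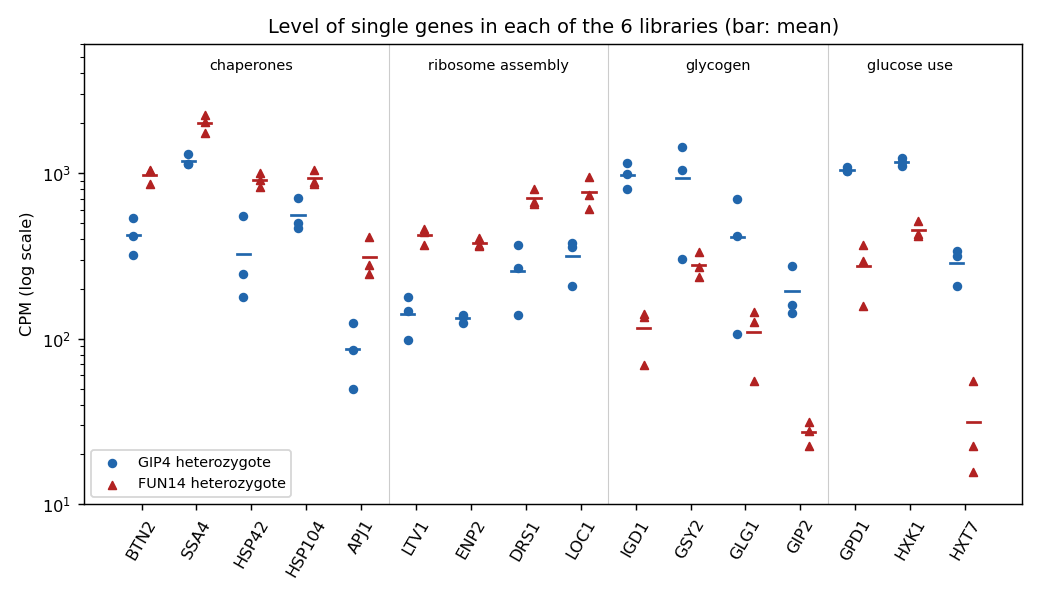
CPM of 16 genes (x axis, by role) in each library on a log scale, with circles for the GIP4 heterozygote, triangles for the FUN14 heterozygote and bars for the mean of 3 libraries. The chaperone and ribosome assembly genes shown lie higher in the FUN14 heterozygote. The glycogen and glucose-use genes shown lie higher in the GIP4 heterozygote, with overlap in GSY2 and GLG1. All 16 were picked among genes called in these directions. Members called the other way (AHA1, CDC37, CPR1, DBP8 and NOG1) are not shown.

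Several genes of glucose use were higher in the GIP4 heterozygote. Of 20 tested genes of glycolysis and fermentation 5 were called in that direction and none in the other, beside the background of 13.9%. Of the 20 values 15 were negative, but the median was only -0.13, and with GC offsets it became 0.09 and 1 gene was called. HXK1, the hexokinase repressed by glucose, gave 1164, 1224 and 1102 CPM in the GIP4 heterozygote and 415, 425 and 515 CPM in the FUN14 heterozygote (-1.37 ± 0.19, adjusted p = 0.000516). The 2 groups were tight, and the call held with any 1 library left out. Its window overlaps another ORF, as does that of PGK1. PGK1, phosphoglycerate kinase, gave 1904, 2081 and 2542 against 1188, 992 and 988 CPM (-1.02 ± 0.17, adjusted p = 0.00116), and PYK2, the second pyruvate kinase, and HXK2, the main hexokinase on glucose, were also called (-1.24 ± 0.33 and -0.91 ± 0.24). PGK1, PYK2 and HXK2 were not called with GC offsets (adjusted p of 0.0937, 0.125 and 0.178), and PYK2 and HXK2 were also lost without GIP4 heterozygote replicate 2 or FUN14 heterozygote replicate 2 or 3 (adjusted p from 0.0519 to 0.123). The count of 5 was 2 without GIP4 heterozygote replicate 2, FUN14 heterozygote replicate 2 or FUN14 heterozygote replicate 3, and 8 without GIP4 heterozygote replicate 3. HXT7, a high-affinity glucose transporter near-identical to HXT6, gave 316, 208 and 338 against 22.4, 15.7 and 55.7 CPM (-3.13 ± 0.49, adjusted p = 0.000841). It was the called one of 4 tested hexose transporter genes, and the other 3 had positive values (list median 0.37). GPD1, the glycerol-3-phosphate dehydrogenase of glycerol synthesis and the called one of 6 tested genes of that pathway, gave 1085, 1028 and 1031 against 370, 157 and 292 CPM (-1.90 ± 0.26, adjusted p = 0.000516). The 6 tested glycerol genes were split, with 3 positive and 3 negative values and a median of -0.05. HXT7 and GPD1 were called with any 1 library left out.

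The general stress list, made mostly of genes known as targets of Msn2 and Msn4, was split. Of 80 genes 40 were tested, 9 were higher in the GIP4 heterozygote, 1 was higher in the FUN14 heterozygote and 30 were not called, so the share called in the first direction was above the background of 13.9%. The median log2 difference was -0.15 with 25 of 40 values negative, and it became 0.04 with GC offsets. The count of 9 was 18 without GIP4 heterozygote replicate 3. Summed over the 80 genes, the level was 33579, 28661 and 27620 CPM in the GIP4 heterozygote and 23716, 25214 and 24607 CPM in the FUN14 heterozygote, against 16773 to 29119 CPM in the wild-type libraries. The groups did not overlap. The 9 were HXK1, NNR2, PST2, PAI3, APE1, EMI2, ZWF1, PRC1 and SPI1. Without FUN14 heterozygote replicate 3, SPI1, EMI2 and PRC1 lost the call (adjusted p = 0.052, 0.0633 and 0.0525). SPI1 also lost it without GIP4 heterozygote replicate 2 (adjusted p = 0.0681). With GC offsets ZWF1 and SPI1 lost it (adjusted p = 0.058 and 0.137). NNR2, an enzyme that repairs damaged NADH, gave 750, 453 and 231 against 78.5, 31.5 and 41.8 CPM (-3.18 ± 0.51, adjusted p = 0.00102). PAI3, the inhibitor of vacuolar proteinase A, gave 908, 673 and 444 against 202, 126 and 83.5 CPM (-2.28 ± 0.37, adjusted p = 0.00114). PST2, a flavodoxin-like protein, gave 819, 759 and 764 against 258, 94.5 and 139 CPM (-2.19 ± 0.32, adjusted p = 0.000746). The member on the opposite side was RTS3, a putative component of protein phosphatase 2A, at 128, 135 and 53.3 against 538, 331 and 376 CPM. RTS3 had the largest log2 difference of the ORFs called higher in the FUN14 heterozygote, 1.91 ± 0.39 (adjusted p = 0.00416). These 4 genes were called with any 1 library left out. The name of the comparison, growth against storage and stress, thus matched the ribosome assembly and glycogen lists. The chaperone list, however, lay on the growth side. The medians of the general stress, trehalose and translation factor lists stood near 0 (-0.15, 0.14 and 0.11). None of the separations between lists was tested as such.

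Antioxidant genes lay on the GIP4 heterozygote side, with 4 of 16 tested members higher there, none higher in the FUN14 heterozygote and a median of -0.41, beside the background of 13.9%. TSA1, the main cytosolic peroxiredoxin, gave 760, 1077 and 1066 against 392, 189 and 348 CPM (-1.60 ± 0.27, adjusted p = 0.00129). AHP1, a thiol peroxiredoxin, gave 1499, 2032 and 2168 against 1188, 630 and 905 CPM (-1.03 ± 0.22, adjusted p = 0.00547). Thioredoxin TRX2 and the copper chaperone CCS1 were the other called members (-1.16 ± 0.26 and -1.36 ± 0.32). The count of 4 was 8 without GIP4 heterozygote replicate 3 and 1 in DESeq2 on all libraries. The TSA1 call held with any 1 library left out, whereas AHP1 and TRX2 lost the call without FUN14 heterozygote replicate 3 (adjusted p = 0.0713 and 0.0682) and CCS1 without GIP4 heterozygote replicate 2 (adjusted p = 0.0591). Of 21 tested cell wall genes 3 were higher in the GIP4 heterozygote, namely SED1, SPI1 and the glucan-modifying enzyme GAS1, a share near the background of 13.9%, and the median was -0.47. The count of 3 was 8 without GIP4 heterozygote replicate 3 and 1 without GIP4 heterozygote replicate 2 or FUN14 heterozygote replicate 3. GAS1, whose groups overlapped, lost the call without any 1 library other than GIP4 heterozygote replicate 3 (adjusted p from 0.0598 to 0.109). None of these 3 was called with GC offsets, and the median GC content of the list was 46.5%.

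Biosynthetic and energy lists held calls mainly on the GIP4 heterozygote side, at shares near the background, with medians near 0. Of 51 tested amino acid genes 8 were called in that direction and 1 in the other, with a median of -0.01. ASN2, an asparagine synthetase, gave 1223, 1616 and 1493 against 572, 362 and 557 CPM (-1.51 ± 0.21, adjusted p = 0.000516). Of 29 tested nucleotide genes 5 were higher in the GIP4 heterozygote and none was called in the other direction (median -0.12), among them GUK1, guanylate kinase, at 1282, 1175 and 1173 against 695, 551 and 529 CPM (-1.02 ± 0.18, adjusted p = 0.00181). Of 30 tested genes of the TCA cycle and respiration 5 were higher in the GIP4 heterozygote and 1 had the opposite call (median 0.14). CYC1, cytochrome c, gave 464, 490 and 196 against 67.2, 63.0 and 41.8 CPM (-2.73 ± 0.46, adjusted p = 0.00125). MDH1, mitochondrial malate dehydrogenase, gave 829, 551 and 231 against 123, 63.0 and 97.4 CPM (-2.49 ± 0.46, adjusted p = 0.00233). Of 25 tested mitochondrial ribosomal proteins 4 were called, all higher in the GIP4 heterozygote (median -0.08), led by MRPS9 at 750, 624 and 267 against 56.0, 15.7 and 41.8 CPM (-3.77 ± 0.51, adjusted p = 0.000516). Of 25 tested proteasome genes 4 were called in that direction (median -0.07), and the core subunit PRE5 gave 1026, 918 and 302 against 134, 63.0 and 139 CPM (-2.73 ± 0.45, adjusted p = 0.00116). The medians of the mitochondrial ribosome and proteasome lists turned to 0.02 under scaling to library totals. Without GIP4 heterozygote replicate 3, the calls on the GIP4 heterozygote side were 16 for amino acid, 8 for nucleotide and 8 for mitochondrial ribosome genes. Without GIP4 heterozygote replicate 2 there were 2 for the proteasome and 1 for the mitochondrial ribosome, and without FUN14 heterozygote replicate 3 there were 3 for nucleotide, 2 for proteasome and 2 for mitochondrial ribosome genes. The proteasome count was also 2 without FUN14 heterozygote replicate 2. Of 13 tested genes of mitochondrial dynamics and mitophagy, the list nearest to the role of FUN14, 2 were higher in the GIP4 heterozygote, the outer membrane protein OM14 (-0.76 ± 0.21, adjusted p = 0.0229) and the inner membrane protease PCP1 (-1.07 ± 0.33, adjusted p = 0.0398), again near the background share. Neither was called with GC offsets (adjusted p = 0.297 and 0.0619), a fit that called 2 members higher in the FUN14 heterozygote and 1 in the GIP4 heterozygote, and DESeq2 called none of the list. OM14 was also lost without GIP4 heterozygote replicate 2 or FUN14 heterozygote replicate 2 or 3 (adjusted p from 0.0831 to 0.135), and PCP1 without any of these or GIP4 heterozygote replicate 1 (adjusted p from 0.0657 to 0.159).

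Sterol and fatty acid genes were divided, with 2 of 14 higher in the FUN14 heterozygote and 3 in the GIP4 heterozygote (median 0.38), beside the backgrounds of 3.32% and 13.9%. With 1 library left out these counts ran from 0 to 5 and from 0 to 4, both highest without GIP4 heterozygote replicate 3 and both 0 without FUN14 heterozygote replicate 3. ERG11, the lanosterol demethylase, gave 109, 85.7 and 124 against 179, 457 and 348 CPM (1.60 ± 0.42, adjusted p = 0.0193), and OLE1, the fatty acid desaturase, was on the same side (0.99 ± 0.29, adjusted p = 0.0333). ERG2 and ERG6, which act after ERG11 in the pathway, were higher in the GIP4 heterozygote (-2.03 ± 0.50 and -0.91 ± 0.29), and HMG1 was the third call on that side. Outside the list, UPC2, a transcription factor of sterol genes, was also higher there, at 316, 171 and 178 against 22.4, 15.7 and 13.9 CPM (-3.57 ± 0.54, adjusted p = 0.000787). The ERG11 call was lost without GIP4 heterozygote replicate 2 or FUN14 heterozygote replicate 2 or 3 (adjusted p from 0.0955 to 0.111), and the OLE1 call without any 1 library other than GIP4 heterozygote replicate 3 (adjusted p from 0.0531 to 0.184). ERG6 was lost in the same 5 fits (adjusted p from 0.0951 to 0.147), with library totals (adjusted p = 0.0693) and with GC offsets (adjusted p = 0.339). HMG1 was lost in those 5 fits as well (adjusted p from 0.0687 to 0.228), with GC offsets (adjusted p = 0.239) and with DESeq2 (adjusted p = 0.253). ERG2, whose groups overlapped, was lost without FUN14 heterozygote replicate 3 (adjusted p = 0.0684), while UPC2 was called with any 1 library left out. Of 11 tested genes of folding in the endoplasmic reticulum 3 were higher in the GIP4 heterozygote, beside the background of 13.9%, and the cyclophilin CPR5 gave 1342, 1261 and 1209 against 314, 63.0 and 139 CPM (-2.79 ± 0.33, adjusted p = 0.000306). TEC1, a transcription factor of filamentous growth and the called one of 4 tested genes of that list, gave 306, 208 and 178 against 22.4, 47.2 and 13.9 CPM (-3.07 ± 0.50, adjusted p = 0.00114). Of 8 tested metal transport genes 2 were higher in the GIP4 heterozygote (1 to 4 with 1 library left out, fewest without GIP4 heterozygote replicate 1 or 2 and most without FUN14 heterozygote replicate 1), the vacuolar iron transporter CCC1 (-2.40 ± 0.41) and the zinc transporter ZRT1 (-1.83 ± 0.56). ZRT1 lost the call without FUN14 heterozygote replicate 2 or 3 (adjusted p = 0.118 and 0.189). Of 13 tested cyclin and histone genes the G1 cyclin CLN2 was higher in the GIP4 heterozygote (-1.86 ± 0.48, adjusted p = 0.0158) and the histone H4 gene HHF1, which has a near-identical copy, was higher in the FUN14 heterozygote (1.50 ± 0.46, adjusted p = 0.0376). CLN2 lost the call without FUN14 heterozygote replicate 2 or 3 (adjusted p = 0.102 and 0.122), and HHF1 without any 1 library other than GIP4 heterozygote replicate 3 (adjusted p from 0.0758 to 0.225), without a count filter (adjusted p = 0.0625) and with a minimum count of 5 (adjusted p = 0.0563). DESeq2 called neither. The meiotic repressor UME6 was higher in the FUN14 heterozygote (1.38 ± 0.38, adjusted p = 0.0242) and was the tested one of 11 meiotic regulators. The call was lost without GIP4 heterozygote replicate 1 or 2 or FUN14 heterozygote replicate 2 or 3 (adjusted p from 0.0591 to 0.159), with GC offsets (adjusted p = 0.067) and with DESeq2 (adjusted p = 0.105). Of 11 tested vacuolar ATPase genes VMA4 was higher in the GIP4 heterozygote (-0.75 ± 0.24, adjusted p = 0.0432), with overlapping groups. It was lost without any 1 library other than GIP4 heterozygote replicate 3 (adjusted p from 0.0863 to 0.182), with DESeq2 (adjusted p = 0.0726) and with library totals (adjusted p = 0.0725). None of 12 tested phosphate genes, 8 tested genes of daughter cell separation and 2 tested auxotrophic marker genes was called.

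The ORFs with the largest differences lay on the GIP4 heterozygote side. YJR084W, for which RefSeq's table gives the synonym CSN12, gave 365, 343 and 196 CPM in the GIP4 heterozygote and 11.2, 15.7 and 0 CPM in the FUN14 heterozygote (-4.88 ± 0.61, adjusted p = 0.000382). LOT6, a quinone reductase, gave 395, 294 and 284 against 22.4, 31.5 and 0 CPM (-4.09 ± 0.55, adjusted p = 0.000516). SNF5, a subunit of the SWI/SNF chromatin remodelling complex, gave 917, 612 and 302 against 101, 15.7 and 27.8 CPM (-3.54 ± 0.55, adjusted p = 0.00084). RGR1, a Mediator subunit, gave 375, 392 and 142 against 22.4, 31.5 and 27.8 CPM (-3.47 ± 0.54, adjusted p = 0.00084). The groups were separate in all 4, and in each the other 12 libraries covered much of the span between the strains, from 17.0 to 879 CPM in SNF5 and from 0 to 404 CPM in RGR1. The rest of the 12 ORFs with the largest differences in this direction were AIM39, YDR396W, MRPS9, UPC2, TSC10, DLD2, YGR161W-C and MPM1, between -3.42 and -4.07. All 12 were called with any 1 library left out. The windows of YDR396W and MPM1 overlap other ORFs, so their reads cannot be told apart from those of their neighbours. On the FUN14 heterozygote side the 12 with the largest differences were RTS3, APJ1, YLR198C, RRB1, GCD2, LTV1, ERG11, SOF1, SSB2, SIS1, UBA1 and YIL047C-A, between 1.50 and 1.91. YLR198C overlaps NOP56 and YIL047C-A overlaps SYG1. RTS3, APJ1 and LTV1 kept the call with any 1 library left out, and the other 9 lost it in at least 1 such fit. Of all 362 called ORFs 61 had a window that overlaps another ORF, which is 17.5% of those higher in the GIP4 heterozygote and 14.3% of those higher in the FUN14 heterozygote, beside 15.3% of the tested ORFs.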

How the data were processed

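For 6606 ORFs in 18 libraries the authors made estimated counts over the last 200 bases of the ORF, as the name of their table says. The submitters' processing notes list Bowtie 0.12.5, a short-read aligner. How reads with several matches were handled, whether strand was used and which genome build was used is not given in the sources used here. Of the deposited estimated counts, 93.0% were whole and 6.98% were multiples of 0.5, and no value exceeded 201, so differences between strong ORFs are compressed and are understated. Of the ORFs 5918 were paired with RefSeq's R64 table, which gave symbols for 5275, and the other 688 were unpaired. Coordinates of ORFs are those of the deposited table, and 895 ORFs had the same start and end in R64, which was used for promoters and GC content.

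Counts were rounded and fitted with edgeR 4.0.16 in R 4.3.3: TMM factors, a filter at a minimum count of 10, a mean per strain over the 6 libraries and the quasi-likelihood test. An ORF was called at a Benjamini-Hochberg adjusted p under 0.05 over all tested ORFs. Log2 differences carry the standard error of the fit, and CPM were taken per 1000000 of the TMM-scaled library. FUN14 and GIP4 were also tested by an exact two-sided permutation test on log2 CPM with a prior count of 2. Intervals cover counting error only. In fits that include the other strains, wild-type replicates 1 and 2, which differed by less than the sampling noise (chi-square of 0.969 per ORF over 2513 ORFs, p = 0.862), were counted as 1 sample. The 6 libraries compared here showed no such pair.

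The script for the count test was tested on simulated data. The comparison, the 35 gene lists and the rules were chosen with earlier results of these data known, so lists are described by counts and medians and no list was tested. Named genes are FUN14 and GIP4 and their neighbours, the 12 ORFs with the largest differences in each direction among called ORFs with separate groups, up to 4 called members of each list with the smallest p (up to 2 where none was called), and all glycogen and trehalose genes. Other members are named in full lists of calls. NOP1, NOP56, NOP58, HSP42, HSP104, DBP8, NOG1, CDC37, CPR1, SSA1, SSA2, HSP82 and SSC1 were picked after their values were seen. Alternatives were DESeq2 1.42.0, other size factors, filters and count models, a replicate block, GC offsets, a fit of all libraries and leaving out each library. The GC offsets and DESeq2 on all libraries were chosen after seeing the data.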

Additional observations from a re-analysis of the deposited data

How the results depend on the processing

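With all libraries in 1 fit 0 ORFs were called (0 in each direction), and DESeq2 on all libraries called 145, with 10 higher in the FUN14 heterozygote and 135 higher in the GIP4 heterozygote. The number higher in the FUN14 heterozygote was 25 with DESeq2, 106 with library totals only and 110 with GC offsets. Without a count filter 608 ORFs were called, 544 of them higher in the GIP4 heterozygote. With 1 library left out, totals ran from 184 to 834, those higher in the FUN14 heterozygote from 8 to 277 and those higher in the GIP4 heterozygote from 173 to 557. The strains share replicate numbers, and same-numbered libraries correlated at 0.282, -0.0481 and 0.141 in their deviations from the strain means. Libraries with different numbers correlated at -0.367 to 0.237. With only 3 libraries per strain, these values cannot settle whether same-numbered libraries belong together. With a replicate block 489 ORFs were called, 132 and 357 in the 2 directions, and the 70 and 292 were all among them. The median log2 difference of the glycogen and trehalose list was -0.22 without a count filter and -0.30 with a minimum count of 5, as more weak genes entered. Of the named ORFs that were called, 29 lost the call under DESeq2, 24 with GC offsets and 102 in the edgeR fit of all libraries, and none was on the other side of 0 in any setting. Leaving out GIP4 heterozygote replicates 1, 2 and 3 cost 23, 36 and 0 of these calls, and leaving out FUN14 heterozygote replicates 1, 2 and 3 cost 17, 32 and 49. Depth limits the weak genes: 14 of the 24 glycogen genes and GIP4 itself had too few counts to be tested.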
